A study of Mus musculus with 27 samples.

Results

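Macrophages that live in a tissue and macrophages that take on the repair-associated, alternatively activated state are recognised by a small set of surface receptors and secreted proteins. The genes Mrc1, Cd163, Folr2, Lyve1, Adgre1, Arg1, Chil3 and Retnla were followed here in mouse muscle after volumetric muscle loss (VML), the surgical removal of more muscle than the tissue can regenerate. They are 8 of the 54532 genes in the deposited expression table, and each was taken as the row with exactly that symbol. All 8 passed the filter for testing, which required at least 0.5 FPKM (fragments scaled to gene length and a library size) in at least 5 libraries.

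Poly-A RNA of the tibialis anterior, a muscle of the lower leg, was sequenced in 27 libraries. They came from 5 muscles without injury and from 5, 6, 6 and 5 muscles taken 3, 7, 14 and 21 days after part of the muscle had been excised. The mice were young adult male C57BL/6 animals, with no transgene or drug treatment in any group. The study's methods describe excision in both legs of a mouse, and the labels do not tie libraries to animals, so p-values measure only the spread between these libraries.

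Mrc1 encodes the mannose receptor CD206 and Cd163 the scavenger receptor for haemoglobin bound to haptoglobin, while Folr2 (folate receptor beta) and Lyve1 (a hyaluronan receptor) mark resident macrophages beside vessels. Adgre1 encodes F4/80, a surface receptor of most mouse macrophages. Arg1 (arginase 1), Chil3 (the chitinase-like protein Ym1) and Retnla (the secreted protein RELMalpha or Fizz1) are induced in macrophages by IL-4 and IL-13 through the receptor chain Il4ra and the transcription factor Stat6. Lyve1 is also made by lymphatic endothelium, Chil3 by neutrophils, Adgre1 by eosinophils and Retnla by adipose tissue.

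The libraries held 14376395 to 24436763 reads each, with a median of 17398586. Of the 27 libraries, 9 lay nearer to the mean profile of another group than to their own. Among them, day 3 replicate 5 lay nearest to the day 7 mean and day 7 replicate 5 nearest to the day 3 mean. Day 3 replicate 5 had the lowest level of its group for 8 of the 8 genes, and day 7 replicate 5 the highest of its group for 7 of them. An exchange of their labels is possible and was not tested, and the labels were kept. Results that rest on these libraries are given with and without them. The 12 pan-macrophage and monocyte markers examined (among them Cd68, Csf1r, Lyz2 and Spi1) were all called higher at day 3, beside 23.4% of all tested genes. Their summed level was 17.5 to 26.6 FPKM without injury and 333 to 2207 FPKM at day 3. Fcgr1, Itgam, Cx3cr1, Ly6c2, Ccr2 and Msr1 among them reached 0.5 FPKM in no library without injury, so their calls were favoured by the filter. The 5 muscle fibre markers, which define the labelled tissue, summed to 63587 to 78649 FPKM without injury and 19954 to 51738 FPKM at day 3. Of these, 5 of 5 were called lower at day 3 (median log2 difference -1.43) and 3 of 5 at day 7, beside 19.8% and 14.4% of all tested genes. The make-up of the tissue thus moved with the changes below, and its part in them was not tested. In whole muscle, more macrophages and more RNA of a gene per macrophage cannot be told apart.

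The members split into a group of 7 genes that rose at day 3 and a single gene, Retnla, that lay lower at day 3 and highest by median at day 21. Compared with intact muscle, 7 of these 8 genes passed as higher on day 3 (limma, Benjamini-Hochberg adjusted p under 0.05 over 14630 genes) and 0 lower, where 23.4% of all tested genes were called higher and 19.8% lower. Folr2, Adgre1, Arg1 and Chil3 are among the 7, and they reached 0.5 FPKM in no library without injury. Their calls were thus favoured by the filter, and the count is a description. The day 3 libraries lay above every library without injury for 6 of the 8 genes, against 19.8% of all tested genes. Mrc1, Cd163 and Adgre1 were called at day 7 as well, all higher, which makes 3 of the 8 where 29.4% of all genes were called in either direction. The count was 0 of the 8 at day 14, when 9.02% of all genes were called higher. It was again 0 of the 8 at day 21, when 1.74% were. At an unadjusted limma p under 0.05 there were also 0 of the 8 at day 14 and 0 at day 21, where 34.7% and 19.8% of all genes passed that threshold. With FPKM rescaled to a common sum, 7087 genes were called higher and 322 lower at day 3, against 3417 and 2899 as deposited, and with quantile normalization 2774 higher and 3734 lower.

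**Figure D1:**
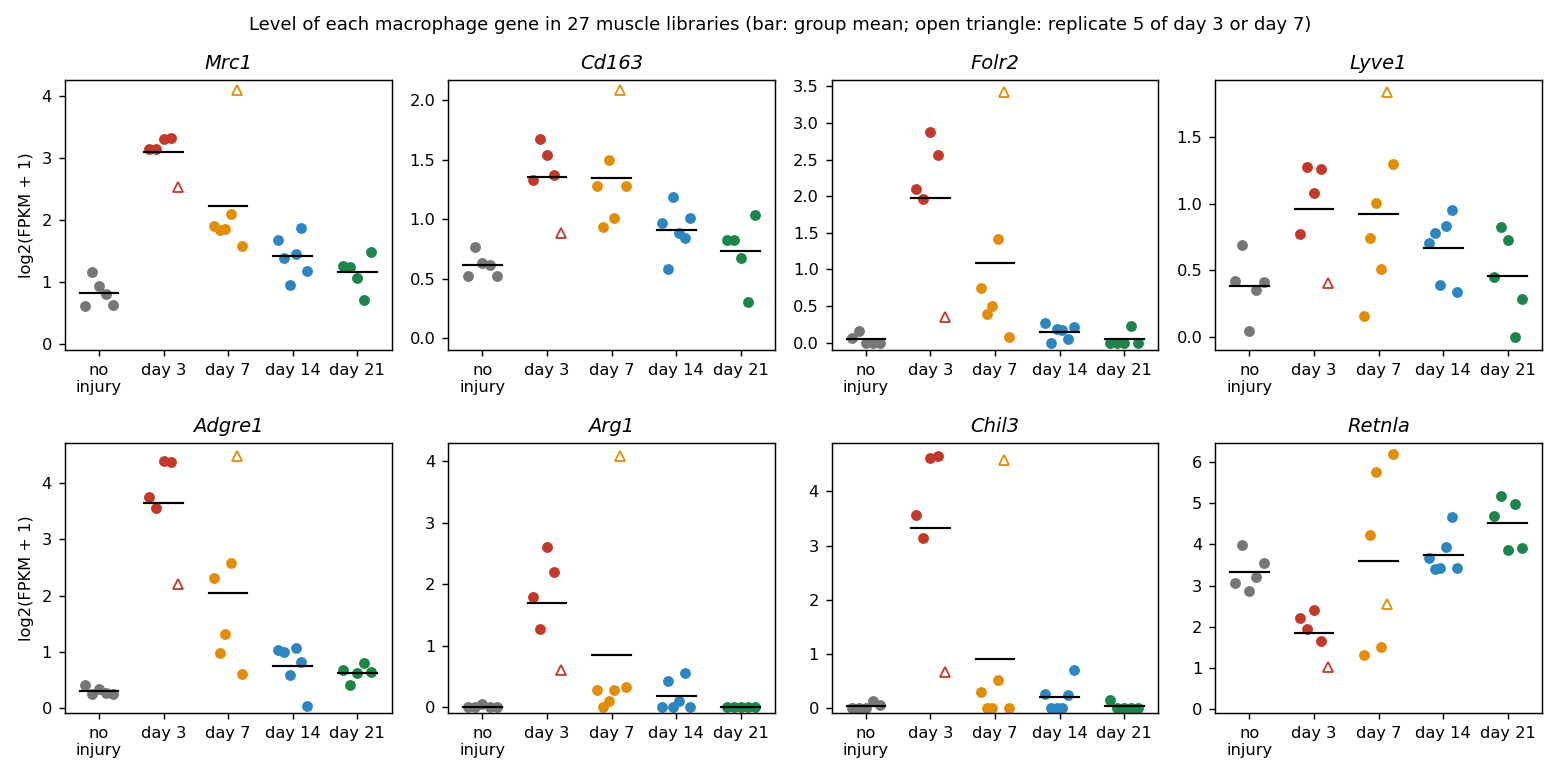
Level of each gene in every library, as log2(FPKM + 1) on the vertical axis, with the 5 groups on the horizontal axis; points are libraries, bars are group means and open triangles are replicate 5 of day 3 and of day 7. For all genes but Retnla day 3 has the highest median, and the day 7 triangle stands above the other day 7 points; Retnla has its lowest group at day 3.

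Mrc1, the mannose receptor, was present in every library (chr2:14229392-14332057, plus strand). Without injury its 5 libraries measured 0.530, 1.23, 0.910, 0.739 and 0.536 FPKM, and at day 3 they measured 7.83, 7.83, 8.92, 8.95 and 4.80 FPKM. At day 7 the lowest, median and highest values were 2.003, 2.66 and 16 FPKM, and at day 14 they were 0.938, 1.67 and 2.66 FPKM. At day 21 the libraries measured 1.40, 1.37, 1.09, 0.637 and 1.80 FPKM. All day 3 and day 7 libraries therefore lay above all libraries without injury, while those of day 14 and day 21 overlapped them.

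The mean of Mrc1 rose from 0.789 ± 0.293 (SD, n = 5) to 7.67 ± 1.69 FPKM (SD, n = 5) at day 3, a ratio of means of 9.71. On the log2(FPKM + 1) scale this was a rise of 2.26 (SE 0.31, limma adjusted p = 4.28e-06) at day 3 and of 1.40 (SE 0.29, adjusted p = 0.00132) at day 7. Later differences did not pass the test, with 0.59 (adjusted p = 0.149) on day 14 and 0.33 (adjusted p = 0.591) on day 21. The exact permutation test of Mrc1 alone (two-sided) gave p = 0.00866 for day 14. Without day 7 replicate 5 the day 14 difference of Mrc1 had the same size, a smaller SE of 0.17 and an adjusted p of 0.0124. The levels fell in the order day 3, day 7, day 14, day 21 and no injury, and no neighbouring pair of time points differed with all libraries included. Without both replicate 5 libraries, day 7 lay below day 3 by 1.37 on the log2 scale (adjusted p = 2.17e-06).

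Cd163, the haemoglobin scavenger receptor, changed less than Mrc1 on the log2 scale (chr6:124304656-124330527, plus strand). It measured 0.440, 0.702, 0.546, 0.535 and 0.438 FPKM without injury and 1.51, 2.19, 1.91, 1.58 and 0.843 FPKM at day 3. At day 7 its lowest, median and highest values were 0.913, 1.43 and 3.24 FPKM, all above the muscles without injury. At day 14 the corresponding values were 0.49999, 0.898 and 1.28 FPKM, and the day 21 libraries measured 0.770, 0.770, 0.601, 0.232 and 1.05 FPKM. Both later groups overlapped the muscles without injury.

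The mean of Cd163 was 0.532 ± 0.108 FPKM (SD, n = 5) without injury and 1.61 ± 0.507 FPKM (SD, n = 5) at day 3. Its log2 rise was 0.75 (SE 0.18, limma adjusted p = 0.00140) at day 3 and 0.73 (SE 0.17, adjusted p = 0.00271) at day 7. The day 7 level differed from the day 3 level by -0.01 (SE 0.17, adjusted p = 0.986), a difference smaller than its error. Without both replicate 5 libraries the means were 1.80 FPKM at day 3 and 1.32 FPKM at day 7, a log2 difference of -0.28 (adjusted p = 0.207). At day 14 the difference from no injury was 0.30 (adjusted p = 0.212), with p = 0.0173 in the exact permutation test of this gene alone (two-sided), and at day 21 it was 0.12 (adjusted p = 0.748).

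Folr2, a folate receptor of perivascular macrophages, was almost undetected without injury, with 4 reads in 5 libraries (chr7:101839988-101857194, minus strand). At day 3 its libraries measured 3.29, 2.89, 6.35, 4.91 and 0.274 FPKM, from 9 to 259 reads. At day 7 the lowest, median and highest values were 0.0519, 0.546 and 9.69 FPKM, and the highest was replicate 5. At day 14 Folr2 reached at most 0.204 FPKM, and at day 21 all 4 reads fell in replicate 4. The day 3 libraries did not overlap those without injury, and by day 21 the gene was back at the level of a few reads. Folr2 passed the filter only through libraries of day 3 and day 7.

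The day 3 rise of Folr2 was 1.93 (SE 0.43, limma adjusted p = 7.57e-04) on the log2(FPKM + 1) scale, which understates the change of a gene near 0. The day 7 difference was 1.05 (SE 0.41, adjusted p = 0.0540). Without both replicate 5 libraries the day 7 difference was smaller, 0.58, but its spread was smaller too (adjusted p = 0.0214). A non-coding gene annotated on the opposite strand, Gm10602, overlaps Folr2 and reached 1.02 FPKM at most. The library preparation did not keep strand, so reads in the overlap cannot be told apart.

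Lyve1 gave the smallest change of the resident receptors on the log2(FPKM + 1) scale, which shrinks changes at low levels, while its ratio of means at day 3, 3.13, was close to that of Cd163, 3.02 (chr7:110850607-110863239, minus strand). Its libraries measured 0.334, 0.617, 0.0292, 0.278 and 0.328 FPKM without injury, from 1 to 31 reads. At day 3 they measured 0.706, 1.42, 1.12, 1.40 and 0.322 FPKM, with 4 of the 5 above all libraries without injury. At day 7 the range was 0.115 to 2.59 FPKM with a median of 0.838, at day 14 it was 0.262 to 0.939 FPKM, and at day 21 it ran from 0 to 0.772 FPKM. These ranges overlap the muscles without injury at each time point.

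The day 3 difference of Lyve1, 0.58 (SE 0.24), was just past the threshold with a limma adjusted p of 0.0498. This call was lost when any of 20 of the 27 libraries was left out, with adjusted p values of 0.0501 to 0.124. Without both replicate 5 libraries it had an adjusted p of 0.00583 and a difference of 0.72. Of the 7 lymphatic endothelium markers, 3 could be tested, and 1 was called higher at day 3, beside 23.4% of all tested genes. It was Pdpn (2.38, adjusted p = 6.41e-07), which fibroblasts and macrophages also make. Tbx1, tested and not called, had means of 49.8 FPKM without injury and 29.2 FPKM at day 3. The lymphatic factor Prox1 reached at most 0.404 FPKM in any library, with group means of 0.0733 FPKM without injury and 0.143 FPKM at day 3, and the lymphatic receptor Flt4 differed by -0.05 (adjusted p = 0.829). The part of lymphatic cells in the Lyve1 level was not tested.

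Adgre1, the general macrophage receptor F4/80, rose strongly at day 3 (chr17:57358691-57483527, plus strand). It measured 0.325, 0.179, 0.263, 0.201 and 0.190 FPKM without injury, from 8 to 14 reads, and 12.5, 10.7, 19.99, 19.7 and 3.61 FPKM at day 3. Adgre1 reached 0.5 FPKM in no library without injury, so it passed the filter only through injured muscles. At day 7 the lowest, median and highest values were 0.520, 2.72 and 21.5 FPKM. At day 14 they were 0.0262, 0.872 and 1.09 FPKM, and the day 21 libraries measured 0.604, 0.325, 0.534, 0.740 and 0.553 FPKM. The day 3 and day 7 libraries all lay above those without injury, and so, by a hair in its lowest library, did the 5 of day 21.

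The log2 rise of Adgre1 was 3.36 (SE 0.47, limma adjusted p = 6.84e-06) at day 3 and 1.75 (SE 0.45, adjusted p = 0.00579) at day 7. At day 14 it was 0.45 (adjusted p = 0.495), with p = 0.0433 in the exact permutation test (two-sided). At day 21 it was 0.33 (SE 0.47, adjusted p = 0.739), although an exact permutation test of that difference alone (two-sided) gave p = 0.00794, the smallest value that 5 against 5 libraries allow. Non-overlap of this kind held at day 21 for 5.26% of all tested genes, and for 1 of the 8 genes here. The eosinophil markers Siglecf, Epx, Prg2 and Ccr3 summed to 0 FPKM in every library without injury and to 0.0374 to 0.703 FPKM at day 3. Prg2, the only one that could be tested, was called higher at day 7, by 0.56 on the log2 scale (adjusted p = 0.0318), and reached 1.42 FPKM. The part of eosinophils in the Adgre1 level was not tested.

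**Figure D2:**
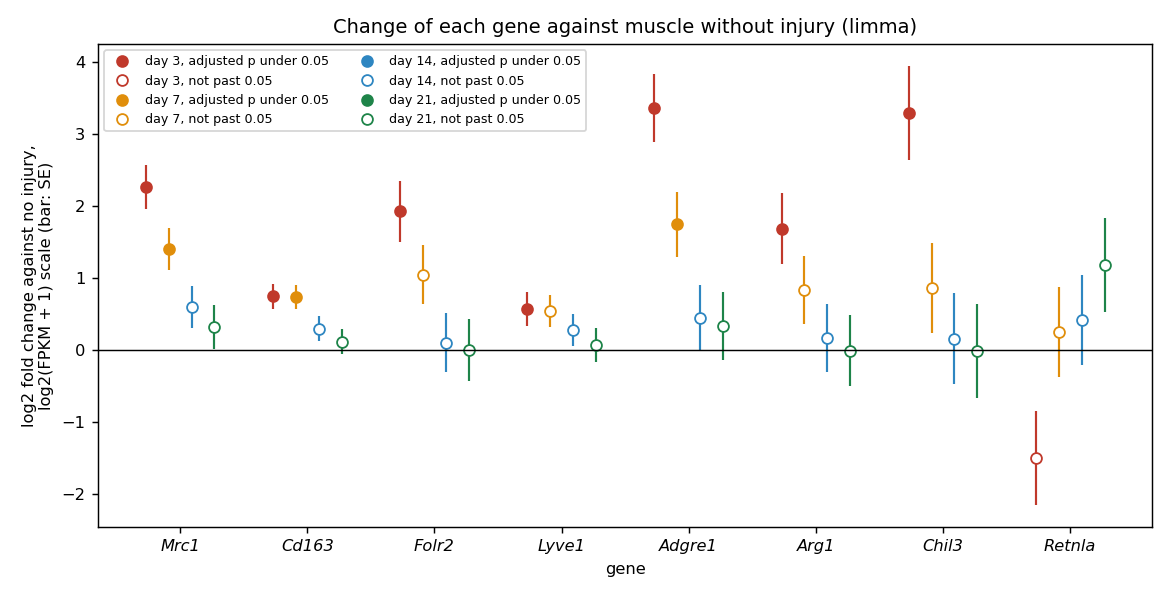
Difference of each time point from no injury on the log2(FPKM + 1) scale (vertical axis) for each gene (horizontal axis), with bars of 1 SE from limma; filled points have an adjusted p under 0.05. The 7 filled day 3 points lie above 0, from 0.58 for Lyve1 to 3.36 for Adgre1, while the open day 3 point of Retnla lies at -1.49 and the day 21 points are all open.

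Arg1, the arginase that turns arginine into ornithine and urea, appeared at day 3 and was absent again later (chr10:24915221-24927484, minus strand). Without injury it had 1 read in all 5 libraries together, in replicate 3. At day 3 it measured 2.45, 1.43, 5.05, 3.59 and 0.527 FPKM. At day 7 replicate 5 measured 16 FPKM, the highest Arg1 value of the series, while the other 5 libraries held at most 0.252 FPKM. At day 14 the highest value was 0.471 FPKM, and at day 21 all 5 libraries had 0 reads. A count of 0 over the day 21 libraries allows at most 0.0184 FPKM (3 reads over the group, counting error only), so the day 3 mean of 2.61 FPKM was at least 142-fold higher. Arg1 passed the filter only through day 3 and a single day 7 library.

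The log2 rise of Arg1 at day 3 was 1.68 (SE 0.49, limma adjusted p = 0.00734). At day 7 the difference was 0.84 (SE 0.47, adjusted p = 0.182) with all libraries and 0.19 (adjusted p = 0.422) without both replicate 5 libraries. Between day 7 and day 3 the difference was -0.85 (adjusted p = 0.403) with all libraries and -1.76 (SE 0.17, adjusted p = 1.36e-07) without those libraries. The day 7 mean of Arg1 was thus set by 1 library.

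Chil3, which encodes Ym1, was with Adgre1 the highest of the 8 genes per gene length at day 3, with a higher mean than Adgre1 but a lower level in 3 of the 5 libraries (chr3:106147554-106167564, minus strand). It had 3 reads in the 5 libraries without injury. At day 3 it measured 10.9, 7.83, 23.5, 24.3 and 0.576 FPKM, a mean of 13.4 ± 10.3 FPKM (SD, n = 5). At day 7 replicate 5 measured 22.8 FPKM and the other libraries at most 0.433 FPKM, with 0 reads in 3 of them. At day 14 the highest value was 0.624 FPKM, and at day 21 there were 3 reads, all in replicate 1. Chil3 passed the filter only through day 3, a single day 7 library and a single day 14 library.

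The log2 rise of Chil3 at day 3 was 3.29 (SE 0.65, limma adjusted p = 2.83e-04), and without both replicate 5 libraries it was 3.96 (adjusted p = 7.31e-12). Its day 7 difference from no injury was 0.86 (adjusted p = 0.314), or 0.12 (adjusted p = 0.707) without them. Chil3 shares 16.9% of its stretches of 50 bases with its neighbour Chil4, but Chil4 had 0 reads in all 27 libraries, which allows at most 0.00216 FPKM (3 reads over all libraries).

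Neutrophil markers were higher at day 3, when Chil3 was high, but not in step with it at day 7. Their 9 genes summed to 0.456 to 4.31 FPKM without injury, 20.8 to 39.3 FPKM at day 3 and 0.298 to 3.65 FPKM at day 21, and 99.9 FPKM in day 7 replicate 5. In day 7 replicates 1, 2 and 4 they summed to 20.3, 21.2 and 14.4 FPKM, with Chil3 at 0.228, 0 and 0.433 FPKM. The 3 of them that could be tested, S100a8, S100a9 and Csf3r, were all called higher at day 3, by 2.92, 2.20 and 1.93 on the log2 scale. Beside this, 23.4% of all tested genes were called higher. Csf3r reached at most 0.270 FPKM without injury, so it passed the filter only through injured muscles. The secondary granule genes Ngp, Camp and Ltf stayed at or under 0.615 FPKM in all libraries, and Ngp was at 0 in 23 of the 27. Day 3 replicate 5 had a neutrophil sum of 25.6 FPKM, inside the range of its group, with a Chil3 level of 0.576 FPKM, the lowest of its group. The part of neutrophils in the Chil3 level was not tested.

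Retnla, the only member with a sizeable level in intact muscle, went the other way (chr16:48842551-48844461, plus strand). Without injury it measured 7.40, 14.9, 6.26, 8.27 and 10.7 FPKM, the highest of the 8 genes per gene length in each of the 5 libraries. At day 3 it measured 3.6, 2.86, 4.30, 2.12 and 1.02 FPKM, all 5 below every library without injury on FPKM as deposited. Relative to each library's own total of reads, this separation does not hold. Day 3 replicate 3 held 68 Retnla reads of 19819115, and no injury replicate 3 held 44 of 15635710. At day 7 the libraries ran from 1.49 to 72.2 FPKM with a median of 11.3 FPKM, a range that covers those of no injury, day 14 and day 21 and most of that of day 3. At day 14 the lowest, median and highest values were 9.505, 10.7 and 24.4 FPKM, and at day 21 the libraries measured 24.6, 34.7, 13.6, 30.4 and 13.9 FPKM. Of the day 21 libraries, 3 lay above every muscle without injury and the other 2 lay just below its highest value.

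The mean of Retnla was 9.52 ± 3.45 FPKM (SD, n = 5) without injury, 2.78 ± 1.28 FPKM (SD, n = 5) at day 3 and 23.5 ± 9.55 FPKM (SD, n = 5) at day 21. The day 3 difference of -1.49 (SE 0.65) missed the threshold in limma with an adjusted p of 0.0659. On FPKM as deposited, the exact permutation test of this gene alone (two-sided) gave p = 0.00794, the smallest value possible. The limma call was made in 7 of 42 alternative fits, with adjusted p values of 0.0311 to 0.0457 when any of the day 7 replicates 1, 3, 4 or 6 was left out. Over the 42 fits the difference ran from -1.88 to -0.82 and the limma adjusted p from 8.36e-04 to 0.229. Without both replicate 5 libraries the difference was -1.29 with an adjusted p of 0.138. All 5 libraries lying below no injury held for 16.5% of all tested genes at day 3. The day 21 difference was 1.18 (SE 0.65, limma adjusted p = 0.316), with p = 0.0238 in the exact permutation test. Between day 21 and day 3 Retnla rose by 2.67 on the log2 scale (SE 0.65, limma adjusted p = 0.00384), and this call held in all 42 alternative fits.

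Adipocyte markers were set beside Retnla because fat expresses it. The 5 markers summed to 54.9 to 105 FPKM without injury and 51.4 to 115 FPKM at day 3. At day 3, 0 of the 4 tested were called, where 43.2% of all tested genes were called in either direction. Nearly all of this sum was Fabp4, which endothelium also expresses, with 91.99 to 100% of it at day 3. The other 4 markers summed to 0.249 to 2.21 FPKM without injury and 0 to 4.11 FPKM at day 3. At day 7 Adipoq, Plin1 and Cidec were called higher, by 2.23, 1.17 and 1.64 on the log2 scale. These were 3 of the 4 tested, where 29.4% of all tested genes were called in either direction. Fabp4 was not called at day 7, with means of 77.9 FPKM without injury and 67.7 FPKM at day 7. The 4 markers other than Fabp4 ran from 1.59 to 37.5 FPKM at day 7. The libraries highest in them, replicates 3, 4 and 6 with 37.5, 24.3 and 20.03 FPKM, had Retnla levels of 53.2, 1.84 and 72.2 FPKM. Replicate 2 was lowest in them and had 17.8 FPKM of Retnla. The part of fat cells in the Retnla level was not tested.

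**Figure D3:**
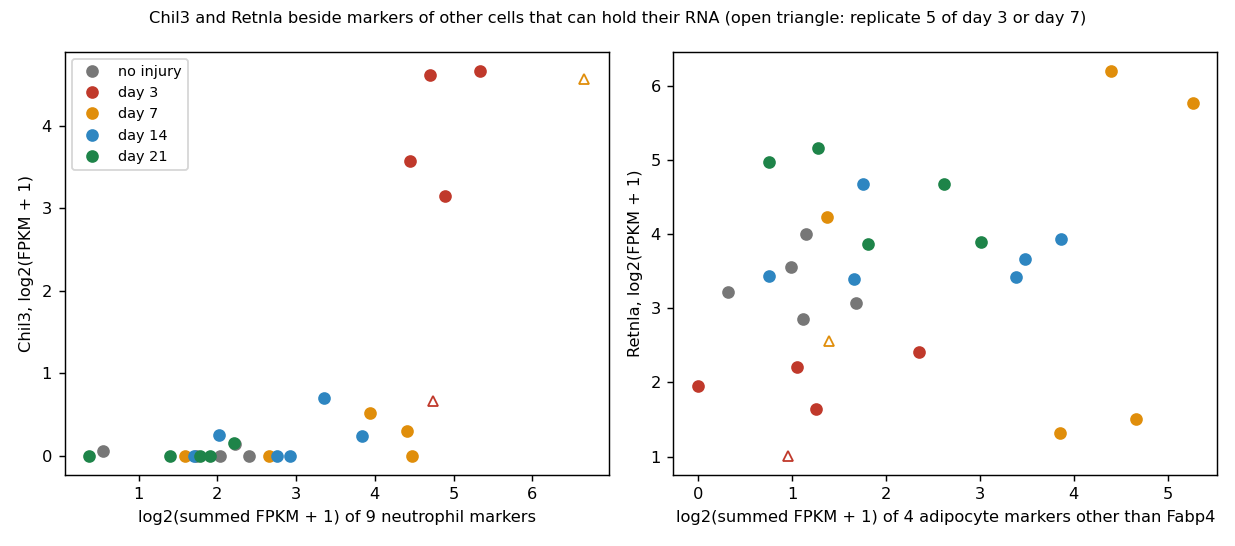
Left: Chil3 as log2(FPKM + 1) against log2(summed FPKM + 1) of 9 neutrophil markers; right: Retnla against log2(summed FPKM + 1) of 4 adipocyte markers, Fabp4 left out, 1 point per library coloured by group, with replicate 5 of day 3 and day 7 as open triangles. Chil3 is high in 4 day 3 libraries and 1 day 7 library, with summed marker levels of 20.8 to 99.9 FPKM, but low in day 3 replicate 5 and day 7 replicates 1 and 2, with sums of 25.6, 20.3 and 21.2 FPKM; Retnla is both high and low in the day 7 libraries with the most adipocyte marker RNA.

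The late fall of the genes other than Retnla was tested by comparing day 21 with day 3. Of the 8 genes, 6 were called lower (background 16.2% of all genes) and 1, Retnla, higher (background 9.23%). Folr2, Arg1 and Chil3 are among the 6, and they had passed the filter through earlier libraries where they were high, so the count is again a description. The log2 differences were -1.94 for Mrc1, -0.63 for Cd163, -1.92 for Folr2, -3.03 for Adgre1, -1.69 for Arg1 and -3.30 for Chil3, with limma adjusted p values from 8.84e-05 to 0.0133. Lyve1 differed by -0.50 (adjusted p = 0.118). Between neighbouring time points 0 of the 8 were called in any of the 3 comparisons, where the tool called 0.0478% of genes between day 7 and day 3, 0.335% between day 14 and day 7 and 0.00% between day 21 and day 14. At an unadjusted limma p under 0.05, 5 of the 8 differed between day 7 and day 3 and 4 between day 14 and day 7, beside 15.7% and 12.4% of all genes at that threshold.

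Without both replicate 5 libraries, 5 of the 8 genes were called lower at day 7 than at day 3, with 11.9% of all genes called lower. Mrc1 fell by 1.37, Folr2 by 1.75, Adgre1 by 2.46, Arg1 by 1.76 and Chil3 by 3.83 on the log2 scale (limma adjusted p from 3.53e-11 to 2.17e-06). Cd163 (-0.28, adjusted p = 0.207), Lyve1 (-0.36, adjusted p = 0.265) and Retnla (1.75, adjusted p = 0.0920) were not called. Leaving out day 7 replicate 5 alone gave 6 calls, 5 lower and Retnla higher, with 10.1% of all genes called lower and 2.17% higher. Leaving out day 3 replicate 5 alone gave 3 calls, all lower, with 4.43% of all genes called lower.

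Each gene was next set against Adgre1 within the same library, as the log2 ratio of the 2 FPKM values after adding 0.1 to each. This removes the scaling between libraries only where both levels are well above 0.1. Without injury Adgre1 lay at 0.179 to 0.325 FPKM and Lyve1 at 0.0292 to 0.617 FPKM, so the added 0.1 weighs on these ratios. At day 3, Mrc1, Cd163, Lyve1 and Retnla were all lower relative to Adgre1 than in intact muscle, with no overlap of libraries. The log2 ratio of Mrc1 to Adgre1 was 1.38 ± 0.61 (SD, n = 5) without injury, with Mrc1 the higher of the pair in all 5 libraries, and -0.60 ± 0.64 (SD, n = 5) at day 3. That of Cd163 went from 0.93 ± 0.43 to -2.81 ± 0.68 and that of Lyve1 from 0.16 ± 1.05 to -3.54 ± 0.53. That of Retnla went from 4.81 ± 0.70 to -2.14 ± 0.59. The differences were -1.98, -3.75, -3.70 and -6.95, each with p = 0.00794 in an exact permutation test (two-sided), the smallest value possible. These ratios share Adgre1, which passed the filter only through injured muscles. Adgre1 rose at day 3 by 3.36 on the log2 scale, more than any of these genes. The lower ratios thus follow from changes already given, and their p-values are not independent results. Adgre1 rests on 8 to 14 reads in each library without injury, which limits the precision of these ratios.

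By day 21 the ratios of these genes overlapped those of intact muscle. The difference from no injury was then -0.36 for Mrc1 (exact p = 0.452), -0.74 for Cd163 (exact p = 0.103), -0.85 for Lyve1 (exact p = 0.357) and 0.30 for Retnla (exact p = 0.548). Of the 28 ratios tested over 7 genes and 4 time points, 10 had an exact p under 0.05, all of them lower than without injury. Of these, 5 involved Folr2, Arg1 or Chil3, whose levels near 0 without injury make the ratio a matter of the added 0.1. The remaining one was Cd163 at day 7, lower by 1.73 (exact p = 0.0390). All 28 share Adgre1 as denominator, so the count is a description.

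**Figure D4:**
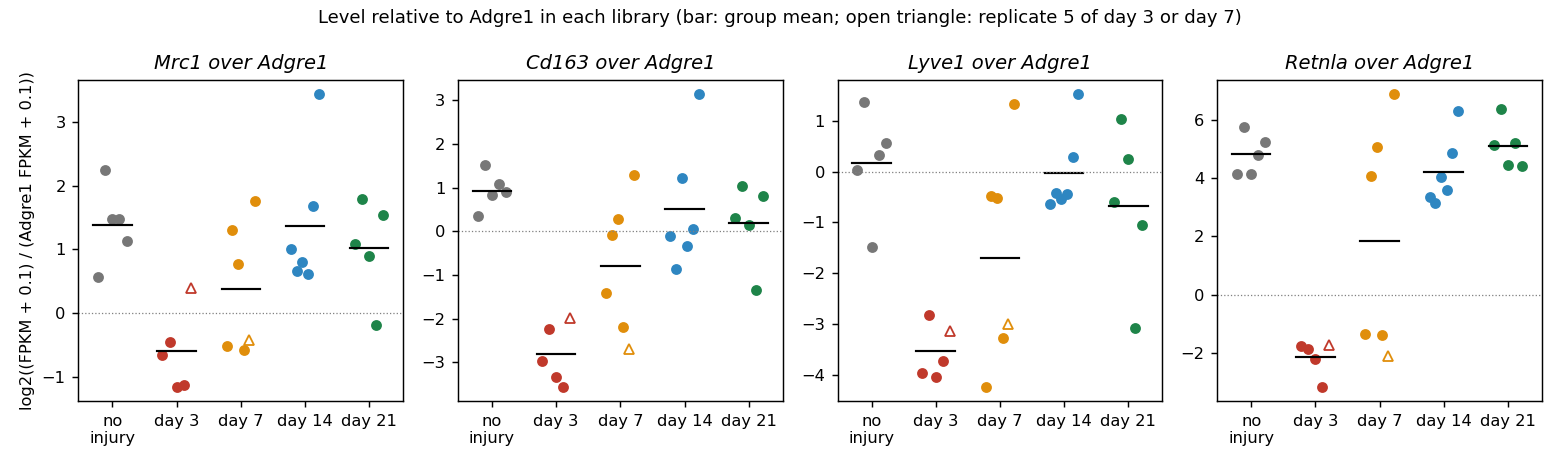
Log2 ratio of Mrc1, Cd163, Lyve1 and Retnla to Adgre1 in every library (vertical axis, 0.1 FPKM added to both genes) by group (horizontal axis); points are libraries, bars group means and open triangles replicate 5 of day 3 and day 7. In all 4 panels the 5 day 3 libraries lie below the 5 libraries without injury, and for Retnla the means are 4.81 without injury and -2.14 at day 3.

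Promoters are shown for Retnla, Chil3 and Folr2, since Retnla departed from the course that Chil3 and Folr2 shared. The RefSeq promoter set used (GRCm38.p6) held windows from 250 bases before to 50 bases after a start for 5 of the 8 genes, with a pair of entries for Folr2. The set used held no entry for Lyve1, Adgre1 and Arg1. The letters TTC and GAA set 4 bases apart, bound by STAT6, the same letters set 3 bases apart (TTCNNNGAA), bound by other STAT factors, and GGAAGT, the core bound by the macrophage factor PU.1 and other ETS factors, were searched on both strands, and matches are in capitals.
Retnla (chr16:48842359-48842658, plus strand): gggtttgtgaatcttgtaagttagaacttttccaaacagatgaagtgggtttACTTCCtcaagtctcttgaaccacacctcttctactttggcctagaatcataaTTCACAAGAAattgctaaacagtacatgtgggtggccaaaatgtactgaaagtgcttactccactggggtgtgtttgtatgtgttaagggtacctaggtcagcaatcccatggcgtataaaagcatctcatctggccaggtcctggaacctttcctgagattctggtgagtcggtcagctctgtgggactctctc
Chil3 (chr3:106167515-106167814, minus strand): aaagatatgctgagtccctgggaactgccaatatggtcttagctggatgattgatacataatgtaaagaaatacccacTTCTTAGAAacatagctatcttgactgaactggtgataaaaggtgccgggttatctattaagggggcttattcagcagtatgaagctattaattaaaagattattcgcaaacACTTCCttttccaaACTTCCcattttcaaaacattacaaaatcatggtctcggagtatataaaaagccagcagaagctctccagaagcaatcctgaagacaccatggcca
Folr2 (chr7:101857141-101857440, minus strand): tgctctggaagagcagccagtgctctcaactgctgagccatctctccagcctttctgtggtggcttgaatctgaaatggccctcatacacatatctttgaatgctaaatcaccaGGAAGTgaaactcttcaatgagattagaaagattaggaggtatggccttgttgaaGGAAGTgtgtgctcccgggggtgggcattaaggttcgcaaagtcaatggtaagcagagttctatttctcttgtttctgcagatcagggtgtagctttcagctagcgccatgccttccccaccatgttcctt

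Retnla alone of these 5 genes held a match of the STAT6-type motif, the letters TTCACAAGAA, beginning at -145 from the start, and 6.95% of the 32851 promoter windows hold such a match. Chil3 held TTCTTAGAA, a match of TTCNNNGAA, which occurs in 8.30% of windows. GGAAGT occurred in the windows of Mrc1, Folr2, Chil3 and Retnla and in 23.8% of all windows, and Cd163 held no match of the 3 motifs. No match overlapped a match of another motif. These are matches of letters, and binding was not measured.

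The RNA of the signalling chain that feeds Arg1, Chil3 and Retnla was measured in the same libraries. Il4, the ligand, had group means of 0.390 FPKM without injury and 0.876 FPKM at day 3 (difference 0.46, adjusted p = 0.161), and Il13 had 0 reads in all 27 libraries, which allows at most 0.00505 FPKM (3 reads over all libraries). These are RNA levels. In muscle lysates the study's cytokine array reported IL-4 protein as higher at day 21 and IL-13 protein as significantly high over time. RNA and protein were not compared here. The receptor chain Il4ra rose from 1.57 ± 0.279 FPKM (SD, n = 5) to 7.93 ± 3.76 FPKM (SD, n = 5) at day 3, by 1.70 on the log2 scale (limma adjusted p = 2.84e-04), and stood at 1.41 ± 0.374 FPKM at day 21. Its partner chains Il13ra1 and Il2rg rose by 1.75 and 2.08. The transcription factor Stat6 rose from 5.17 to 8.18 FPKM, by 0.55 (adjusted p = 0.0183), and the alarmin Il33 by 1.0. In all, 8 of the 12 tested genes among 16 of this pathway were called higher at day 3 and 2 lower, Jak1 and Kdm6b. Of all tested genes, 23.4% were called higher and 19.8% lower. Later the calls higher numbered 6, 4 and 0 on days 7, 14 and 21, with none lower. Calls in either direction then made up 29.4%, 20.3% and 3.43% of all tested genes, so calls became fewer among all genes as well. Il4ra, Il13ra1 and Il2rg thus stood above no injury at day 3, when Arg1 and Chil3 were high and Retnla was at its lowest.

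Some other genes of the alternatively activated state rose at day 3, among them the lectin receptors Clec7a (2.69), Clec10a (1.91) and Mgl2 (1.08). Of the 14 listed, 8 could be tested, and 6, 4, 3 and 0 were called higher at days 3, 7, 14 and 21, with none lower. Beside this, 43.2%, 29.4%, 20.3% and 3.43% of all tested genes were called in either direction at these times. Of 18 other genes of resident macrophages, 15 could be tested, and 10 were called higher at day 3, beside 23.4% of all tested genes. They included the chemokine Pf4 (4.56), the transglutaminase F13a1 (1.99) and the scavenger receptor Stab1 (2.30). The transcription factor Maf was lower, by 0.77 on the log2 scale (adjusted p = 0.00332). None of the 15 was called at day 21, when 3.43% of all tested genes were called in either direction. Of 12 genes of classical activation, 8 could be tested and 3 were called higher at day 3, beside 23.4% of all tested genes. These were the costimulatory receptor Cd86 (1.13), the chemokine Cxcl10 (1.89) and the cytokine Il1b (1.08). The median difference at day 3 was 0.98 for the other alternative activation genes, 1.10 for the resident genes and 0.41 for the classical ones, beside 0.01 over all tested genes.

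Genes of the enzymes and transporters around Arg1 and Cd163 did not share one course. Of 10 genes of arginine metabolism, 8 could be tested, and 3 were called higher and 3 lower at day 3, beside 23.4% and 19.8% of all tested genes. Ass1 and Asl, which rebuild arginine from citrulline, rose by 1.63 and 0.92, and the transporter Slc7a7 by 1.21. Ass1 was the only one still called at day 21, higher by 1.45 (adjusted p = 0.00462), when Arg1 had 0 reads. Of the 8 genes of haemoglobin and iron handling, 4 were called higher at day 3, beside 23.4% of all tested genes. Among them were the haem oxygenase Hmox1 (4.11), the ferritin chain Ftl1 (3.31) and the biliverdin reductase Blvrb (1.69). The iron exporter Slc40a1 fell, by 0.47 at day 3 and by 1.06 at day 21 (adjusted p = 0.00304), the only one of the 8 called then.

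Near relatives of the members were mostly silent. Retnlb had 2 reads in all libraries, Retnlg, a neutrophil gene, reached at most 1.02 FPKM and Arg2, the mitochondrial arginase, at most 0.583 FPKM. Folr1 had means of 0.0778 FPKM without injury and 0.740 FPKM at day 3 and was not tested. Mrc2, a collagen receptor of mesenchymal cells related to Mrc1, rose by 1.76 at day 3 (adjusted p = 9.04e-07), and Chil1 by 0.56 (adjusted p = 0.00151). These were the 2 of 8 relatives that could be tested.

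The genes whose log2 levels ran most like those of each member over the 27 libraries were named as a description, since libraries of one group share their time point. Mrc1 was closest to the integrin Itgb2 (Pearson r = 0.981), Myof (0.976) and the chemokine Ccl9 (0.972). Cd163 was closest to F13a1 (0.893), Mthfd1l (0.844) and Bst1 (0.844), and Folr2 to Steap1 (0.977), the cathepsin Ctsb (0.973) and Tlr13 (0.971). Adgre1 was closest to the complement receptor C3ar1 (0.985), Clec12a (0.984) and Tlr13 (0.980). Arg1 was closest to Cd300lf (0.970), Cxcl5 (0.959) and Tbxas1 (0.958), and Chil3 to genes that included Gdf3 (0.985) and Cd180 (0.977). Lyve1 and Retnla had looser companions: Nagpa (0.802), Metrnl (0.786) and Sod3 (0.784) for Lyve1, and Inmt (0.814), Klhl23 (0.808) and Herpud1 (0.755) for Retnla. Retnla and Mrc1 ran against each other over the 27 libraries (r = -0.50), and less so after group means were removed (r = -0.20), while Mrc1 and Arg1 ran together in both (0.89 and 0.89).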

How the data were processed

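The deposited table gives FPKM per gene, which the authors computed from reads mapped with HISAT2 2.0.5 and counted with featureCounts 1.5.0-p3, per the labels' processing notes and the study's methods. Genome coordinates are those of the table (GRCm38). Dividing out gene length and the value of 1 read gave whole reads (tolerance 0.01 reads). The library size implied by the deposited FPKM was not the sum of these reads. It was 0.747 to 0.819 times that sum without injury and 1.14 to 1.48 times at day 3. Day 3 levels as deposited are thus lower relative to no injury than with each library's own total as denominator. Intervals and limits from reads cover counting error only.

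Values were tested as log2(FPKM + 1) with limma 3.58.1 in R 4.3.3, with all 27 libraries in one fit and a mean-variance trend. The 14630 genes with at least 0.5 FPKM in at least 5 libraries were kept, and p-values were adjusted by Benjamini-Hochberg over all of them, with a threshold of 0.05. Single genes (32 tests) and ratios to Adgre1 (28 tests, 0.1 FPKM added) were tested by exact permutation over libraries (two-sided) with scipy 1.17.1. Their p-values are given unadjusted. The scripts were tested on simulated data.

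Replicate numbers were not used to pair the samples, since the labels do not tie them to animals. After group means were removed, 15 of 51 same-numbered pairs correlated above 0.1, with r from -0.52 to 0.57. For 11 of the 27 libraries the best correlated library of another group had the same number. Differently numbered pairs were not summarised, so a pairing by number is not settled. Members and lists were chosen with earlier results of these data known. Named genes were the 8 members, their near relatives, Il4, Il13, Il4ra and Stat6, up to 3 called genes with the smallest adjusted p per list at day 3 and at day 21, and the 3 genes most correlated with each member, of which 1 is not reported here. Other genes, among them Prox1, Flt4, the granule genes, the day 7 adipocyte genes, the adipocyte sum without Fabp4, Prg2, Jak1 and Kdm6b, and the promoter motifs were chosen after values were seen. Alternatives changed the pseudocount, filter, scaling, weights, groups fitted, block and libraries; leaving libraries out of the single-gene exact tests was added after seeing the data.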

Additional observations from a re-analysis of the deposited data

Results flagged for a closer look

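Of the 40 combinations of gene and group, 11 held a library far from the rest of its group by Dixon's criterion on FPKM. The combinations are not independent, since 1 library can stand apart for several genes, so the count is a description. Day 7 replicate 5 accounted for 5 of them, with 16 FPKM for Mrc1, 9.69 for Folr2, 21.5 for Adgre1, 16 for Arg1 and 22.8 for Chil3. In day 3 replicate 5 Mrc1 stood apart at 4.80 FPKM. Of the others, 4 rest on few reads: Folr2 at 0.172 FPKM in day 21 replicate 4, Arg1 at 0.0383 FPKM in no injury replicate 3, and Chil3 at 0.624 FPKM in day 14 replicate 6 and 0.109 FPKM in day 21 replicate 1. Where only 1 library of a group holds reads, as for Folr2 and Chil3 at day 21 and Arg1 without injury, the criterion is met by construction. Retnla reached 24.4 FPKM in day 14 replicate 5, where Fabp4 was 172.9 FPKM, the 4 other adipocyte markers summed to 2.39 FPKM and the endothelium markers to 111.01 FPKM, the highest of day 14. The part of these cells was not tested.

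The change from no injury differed between day 21 and day 3 for 3 genes whose estimates had opposite signs at these times. The difference, day 21 minus day 3, was -1.69 for Arg1, -3.30 for Chil3 and 2.67 for Retnla on the log2 scale, and limma called each. For Arg1 and Chil3 the day 21 estimate was within its error of 0.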

How the results depend on the processing

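The number of the 8 genes called was recomputed with each library left out in turn. It ranged from 6 to 8 for day 3, from 3 to 4 for day 7, from 0 to 1 for day 14 and from 0 to 0 for day 21 against no injury. It ranged from 0 to 6 between day 7 and day 3 and from 7 to 8 between day 21 and day 3. It was 0 throughout between day 14 and day 7 and between day 21 and day 14. At day 7 it was 5 with FPKM rescaled to a common sum and 5 with each library's own total as denominator, where 44.1% and 39.4% of all genes were called against 29.4% as deposited. At day 14 it was 1 with a pseudocount of 0.1, with quality weights, with only the 2 groups fitted and without both replicate 5 libraries (22.8%, 29.6%, 25.6% and 24% of all genes, against 20.3%). At day 21 it was 1 with quality weights and 2 with only the 2 groups fitted (16.9% and 10.1%, against 3.43%). Between day 7 and day 3 it was 5 with quality weights and 5 without both replicate 5 libraries (12.9% and 15.5%, against 0.0478%). The exact tests under 0.05 numbered 16 to 20 of 32 for single genes and 8 to 12 of 28 for ratios without single libraries, and 21 with Cd68 in place of Adgre1. The cause was not tested. Rescaling to a common sum moved the median of all genes by 0.50, 0.47, 0.28 and 0.11 (days 3, 7, 14 and 21), own totals by 0.40, 0.36, 0.24 and 0.11, and quantile normalization by -0.12 at day 3.

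Blocking on replicate number or letter, which the labels do not tie to animals, gave Lyve1 at day 3 a limma adjusted p of 0.0621 and 0.0616. With the letter block the sign turned for Arg1 at day 21 (0.033), Chil3 at day 21 (0.068) and Cd163 between day 7 and day 3 (0.015).

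Other reversals were of differences not called as reported, and not all of these were small. Chil3 as reported was -0.70 between day 14 and day 7, and its ratio to Adgre1 differed by 0.90 at day 3. Retnla at day 7 was -0.33 with voom on recovered reads, -0.16 with weights and -0.26 to 0.71 without single libraries. At day 21 Folr2 was -0.043 and -3.69e-05 with pseudocounts of 0.1 and 0.5, -0.00089 with quantile normalization, -0.36 with voom, -0.024 with weights and -0.045 to 0.029 without single libraries. Also at day 21, Lyve1 was -0.23 with voom and -0.019 to 0.19 without single libraries, Arg1 -0.014 to 0, and Chil3 0.022 with weights and -0.039 to 0.015. Between day 7 and day 3, Cd163 was 0.026 with quantile normalization, 0.021 with voom and -0.16 to 0.071 without single libraries, and Lyve1 -0.22 to 0.12. Between day 14 and day 7, Chil3 was 0.035 without both replicate 5 libraries and -0.88 to 0.035 without single ones, and Retnla -0.050 and -0.30 to 0.68. Ratios turned for Folr2 at day 7 with Csf1r (0.052), Chil3 at day 3 with Cd68 (-0.14), Retnla at day 21 with Cd68 (-0.16, and -0.014 to 0.53 without single libraries) and Mrc1 at day 14 with 0.5 added (0.11, and -0.43 to 0.20). At day 14 those of Lyve1 ran from -0.61 to 0.10 and of Arg1 from -0.54 to 0.092. In all, 2566 fold changes and 809 ratios kept direction and side of the threshold, and 42 and 14 reversed. Depth limits Arg1, Chil3 and Folr2 without injury, with 1, 3 and 4 reads.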
